A study of Homo sapiens with 6 samples.

Results

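LAMP3 was examined together with 5 other genes for heavily glycosylated proteins of the lysosomal membrane, LAMP1, LAMP2, CD63, CD68 and SCARB2. The 6 genes were taken by symbol from the 26485 symbols of the count tables, and all 6 were counted well enough to be tested. RNA-seq had been performed on total RNA of A549 cells, a human lung adenocarcinoma line, in 2 groups of 3 libraries. All cells of both groups carried dCas9-KRAB, in which a nuclease-dead Cas9 is joined to the KRAB repressor domain, selected with puromycin at 10 ug/ml, and rat Nkx2-1, a lung transcription factor delivered by lentivirus and kept by sorting for GFP. The groups differed in the transfected sgRNA, which was either sgRNA #2 against the SFTPB locus or a non-targeting sgRNA control. Nkx2-1 was thus driven by the PGK promoter of a vector, and no library without it and no library with an sgRNA against LAMP3 was analysed here. The question was whether a lower level of LAMP3 mRNA with sgRNA #2 extended to the genes related to it in family or in location in the cell.

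Lysosomal membrane glycoproteins line the inner face of the lysosome with sugar chains and protect its membrane from the enzymes inside. LAMP1 and LAMP2 are the most abundant of them and are made in nearly every cell, CD68 is a shorter relative best known from macrophages, and LAMP3, also called DC-LAMP, is restricted to a few cell types, above all mature dendritic cells and alveolar type II cells of the lung. In type II cells LAMP3 lies in the membrane of lamellar bodies, the lysosome-related organelles that store surfactant, and SFTPB is packed inside them. CD63 is a tetraspanin that marks late endosomes and secreted vesicles, and SCARB2 (LIMP-2) is the receptor that carries the enzyme glucocerebrosidase to lysosomes. CD63 has also been named LAMP-3 in older usage, but CD63 and LAMP3 are different genes with separate entries in the tables.

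The target of sgRNA #2 is shown beside the study's LAMP3 sgRNA targets, which were not used in these libraries, and beside sites in or near LAMP3, CD63 and SCARB2, chosen for the longest run of bases next to the PAM that equals sgRNA #2 and not for the fewest mismatches in all. Capitals in the first 3 sequences mark the 10 bases next to the PAM, and capitals in the other sequences mark the unbroken run of bases next to the PAM that equals sgRNA #2.
SFTPB sgRNA #2 target: gggatgggagGGGAACACCCagg
LAMP3 sgRNA #1 target, intron 3: cgggtggttaCGTTCCCCAGagg
LAMP3 sgRNA #2 target, intron 5: agcaggtgccAGTTTGAAGGagg
LAMP3 site within 1000 bp of a start site: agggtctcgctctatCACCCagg
LAMP3 site in the gene: ctccccatgaaaaAACACCCtgg
CD63 site within 1000 bp of a start site: tagaatgttgggagACACCCagg
SCARB2 site within 1000 bp of a start site: attgctaatcctGAACACCCagg
The SFTPB target lies on the minus strand at chr2:85668529-85668551 of GRCh38, and the LAMP3 targets lie on the plus strand at chr3:183152120-183152142, in intron 3 of LAMP3, and at chr3:183131401-183131423, in intron 5. Within 1000 bp of an annotated start site of LAMP3, the longest run was 5 bases, at chr3:183164337-183164359 on the plus strand, with 11 mismatches over the 20 guide bases. The letters searched were GGGATGGGAGGGGAACACCC before NGG, on both strands. A run of 5 or more bases lay within 1000 bp of the annotated 5′ end in 48.0% of the 13075 tested genes with a position, so LAMP3 did not stand out. Within LAMP3 and 5000 bp on each side, the longest run was 7 bases with 13 mismatches, at chr3:183136021-183136043 on the plus strand, and the fewest mismatches at any NGG site were 7. Around start sites the longest runs were 5 bases in LAMP1, LAMP2 and CD68, 6 in CD63 (chr12:55729578-55729600, minus strand) and 8 in SCARB2 (chr4:76180687-76180709, plus strand). The SCARB2 run lay 1000 bp before the nearest of several start sites, and within 1000 bp of the gene's annotated 5′ end, the window searched in all genes, the longest SCARB2 run was 6, and 9.19% of genes held a run at least as long. A match of letters is a description of the reference and no measurement of binding.

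In GENCODE release 44 on GRCh38, LAMP1 lies on chromosome 13 from 113297239 to 113323672 and LAMP2 on chromosome X from 120426148 to 120469365. LAMP3 lies on chromosome 3 from 183122215 to 183163839, and none of these 3 genes overlaps another annotated gene. CD63, on chromosome 12 from 55725323 to 55729707, overlaps 1 antisense gene. CD68, on chromosome 17 from 7579491 to 7582111, overlaps 1 gene on each strand, and SCARB2, on chromosome 4 from 76158737 to 76234536, overlaps 2 antisense genes. The strand setting of the counting is not given in the sources used here, so the counts of CD63, CD68 and SCARB2 are uncertain to that extent.

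The libraries held between 6047554 and 7584611 counts on genes, and SFTPB, the gene targeted by sgRNA #2, fell from 2683, 2877 and 3155 counts to 40, 42 and 49. Libraries of 1 group differed by more than counting noise, with chi-square values of 2.72 to 3.61 for each degree of freedom. The epithelial markers KRT8, KRT18, KRT7, CDH1 and EPCAM were counted in every library, while KRT19 had 0 to 4 counts. Of the markers of other cell types, PTPRC, FCGR3A, AIF1, CD1C, HLA-DRA and CDH5 were at 0 in all 6 libraries. This is below the floor of 3 counts (0.394 to 0.499 CPM, counting error only). Other markers of these cell types were counted in every library. CD14 had 12 to 22 counts, ITGAM 7 to 23, LYZ 1 to 12, CCR7 35 to 51, CD83 13 to 22 and COL1A1 36 to 58.

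LAMP3 was counted 89, 142 and 111 times with the sgRNA control, against 15, 36 and 37 times with sgRNA #2. Scaled to library size, these were 14.1, 20.1 and 14.6 CPM with the control and 2.13, 5.40 and 6.15 CPM with sgRNA #2. The highest sgRNA #2 library lay below the lowest control library. Library 1 of sgRNA #2 was the lowest, and its 15 counts carry an exact 95% Poisson interval of 8.40 to 24.7, which covers counting error only. The group means were 16.3 ± 3.31 CPM (SD, n = 3) and 4.56 ± 2.14 CPM (SD, n = 3). The log2 fold change was -1.86 (SE 0.251, 95% interval -2.39 to -1.33, edgeR quasi-likelihood adjusted p = 1.70e-04, by Benjamini-Hochberg over all tested genes). This difference was known when the genes were chosen and is given as a description. When DESeq2 was asked for changes of more than 2-fold, LAMP3 did not pass (adjusted p = 1.0). The study's own DESeq2 analysis of its RNA-seq described LAMP3 as weakly repressed, and there LAMP3 did not reach the study's adjusted p cut-off. In bulk RNA, fewer cells that make LAMP3 and less LAMP3 RNA in each cell cannot be told apart.

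**Figure D1:**
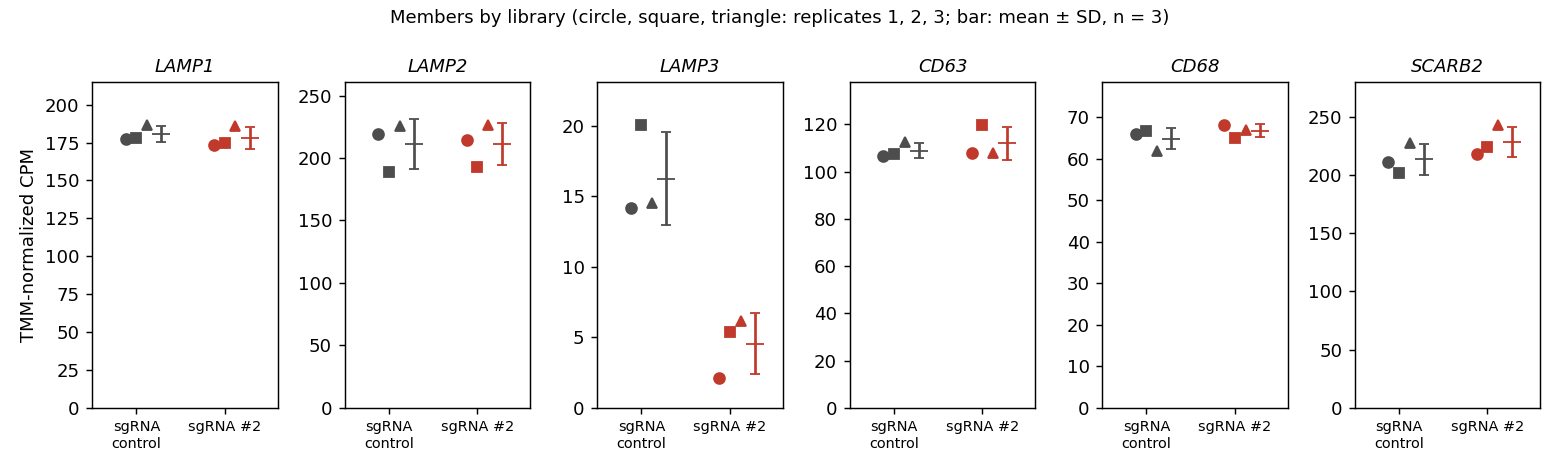
Each panel plots the TMM-normalized CPM of 1 gene (y axis from 0, with its own scale) in the 3 sgRNA control libraries (grey) and the 3 sgRNA #2 libraries (red), with symbols for replicates 1, 2 and 3 and a bar for the mean ± SD. The groups separate in the LAMP3 panel alone, with 14.1 to 20.1 CPM against 2.13 to 6.15 CPM.

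The other 5 genes were not called in either direction. Of the 6 genes, LAMP3 alone passed the cut-offs of a log2 fold change of at least 1 in size and an adjusted p under 0.05, as did 0.719% of the 13356 tested genes, with 0.689% lower and 0.0299% higher. With the replicate number as a block LAMP3 was again the one gene called, beside 0.913% of tested genes, 0.854% lower and 0.0599% higher. The groups of libraries also failed to overlap in LAMP3 alone, against 15.6% of all tested genes in either direction. The median log2 fold change of all tested genes was 0.00, with quartiles of -0.09 and 0.09, and of the other 5 genes only SCARB2, at 0.10, lay outside these quartiles.

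LAMP1, the most used marker of lysosomes, had 1116, 1259 and 1423 counts with the control and 1220, 1166 and 1120 with sgRNA #2. Its means were 181 ± 5.22 and 178 ± 7.09 CPM (SD, n = 3 each), and the ranges of the groups overlapped. The log2 fold change was -0.02 (95% interval -0.16 to 0.11, edgeR adjusted p = 0.941). LAMP2, which as its A form is the receptor of chaperone-mediated autophagy, had 1381, 1333 and 1718 counts with the control and 1509, 1287 and 1363 with sgRNA #2. Both groups averaged 211 CPM, with an SD of 19.8 in the control and 17.0 in the sgRNA #2 libraries (n = 3 each), and libraries of number 2 were the lowest of each group. The log2 fold change was 0.00 (95% interval -0.17 to 0.17, edgeR adjusted p = 1.00). The counts are summed over the annotated isoforms of each gene, so the forms of LAMP2 were not told apart.

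CD68, the shorter relative in the same family, had 415, 471 and 472 counts with the control and 480, 434 and 402 with sgRNA #2. The means were 64.8 ± 2.53 and 66.7 ± 1.55 CPM (SD, n = 3 each), and the groups overlapped. The log2 fold change was 0.04 (95% interval -0.11 to 0.20, edgeR adjusted p = 0.909). LAMP5, the remaining relative, which is known from neurons and plasmacytoid dendritic cells, had 0 to 5 counts in each library and could not be tested.

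CD63 had 671, 759 and 858 counts with the control and 760, 799 and 649 with sgRNA #2, or 109 ± 3.25 and 112 ± 6.85 CPM (SD, n = 3 each). Library 2 of sgRNA #2 was the highest, at 120 CPM, and the other sgRNA #2 libraries lay at 108 CPM, inside the control range of 107 to 113 CPM. The log2 fold change was 0.04 (95% interval -0.11 to 0.18, edgeR adjusted p = 0.909). SCARB2 had 1327, 1424 and 1730 counts with the control and 1535, 1496 and 1461 with sgRNA #2. Its means were 213 ± 13.0 and 228 ± 13.0 CPM (SD, n = 3 each), the log2 fold change was 0.10 (95% interval -0.05 to 0.24, edgeR adjusted p = 0.682), and the groups overlapped. Over these 5 genes, the 95% intervals of the fold change lay between 0.892 and 1.18, so that a change of the size seen in LAMP3 (fold 0.276) lay outside each interval.

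**Figure D2:**
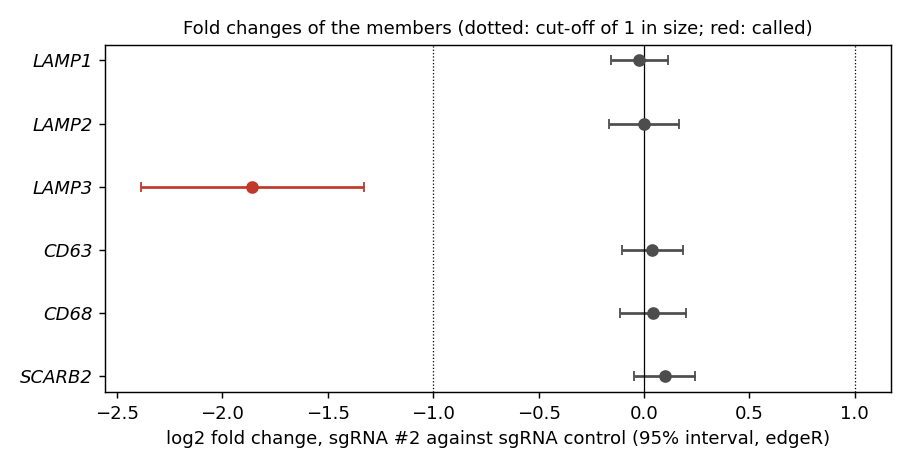
The x axis gives the log2 fold change of each gene, sgRNA #2 against sgRNA control, with its 95% interval from edgeR, and dotted lines mark the cut-off of 1 in size. LAMP3, at -1.86, is the one gene past the cut-off, and the intervals of the other 5 genes all include 0.

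A ratio of counts within a library does not depend on how libraries are scaled, and gives the level of LAMP3 relative to each other gene. Per 1000 counts of LAMP1, there were 79.7, 113 and 78.0 counts of LAMP3 with the control and 12.3, 30.9 and 33.0 with sgRNA #2. Per 1000 counts of CD68, there were 214, 301 and 235 counts of LAMP3 with the control and 31.3, 82.9 and 92.0 with sgRNA #2. The sgRNA #2 libraries lay below all control libraries in the ratio to each of the 5 genes, and library 1 of sgRNA #2 was the lowest in each. The mean log2 ratio with sgRNA #2 minus that with the control was -1.91 against LAMP1, -1.94 against LAMP2, -1.97 against CD63, -1.98 against CD68 and -2.03 against SCARB2, which is 3.77- to 4.10-fold lower. The LAMP3 difference was known beforehand, so these ratios restate it on another scale and are given with no test. The 5 ratios share the LAMP3 counts and are not independent of each other. Among the other 5 genes, the 10 pairwise log2 ratios differed between the groups by at most 0.122.

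**Figure D3:**
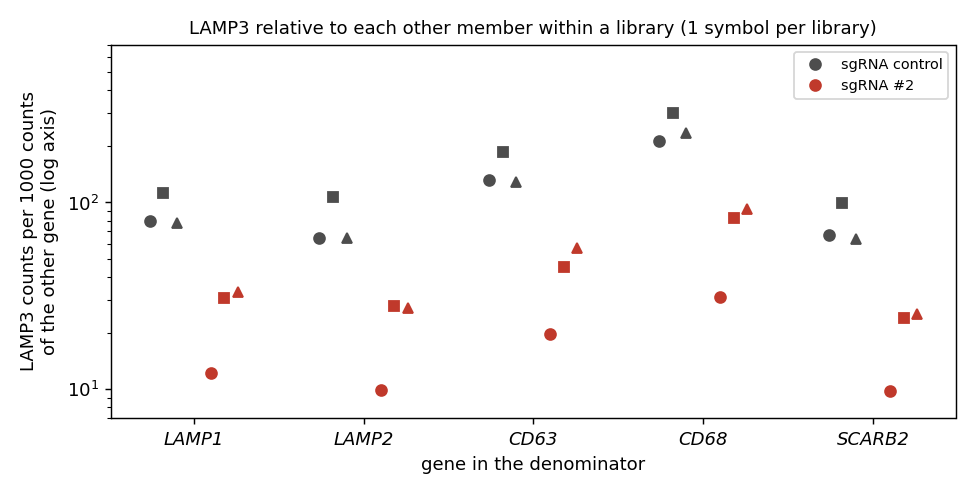
The y axis (log scale) gives LAMP3 counts per 1000 counts of the gene named on the x axis, with 1 symbol per library in grey for the sgRNA control and red for sgRNA #2 (circle, square and triangle for replicates 1, 2 and 3). For each of the 5 genes the red symbols lie below all grey symbols, for example 12.3 to 33.0 against 78.0 to 113 per 1000 counts of LAMP1.

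LAMP3 made up a small part of the counts of the LAMP genes in these cells. Shares of counts are not scaled to gene length. Of the counts of LAMP1, LAMP2 and LAMP3 together, LAMP3 took 3.44% (Wilson 95% interval 2.81 to 4.22), 5.19% (4.42 to 6.09) and 3.41% (2.84 to 4.09) in the control libraries. With sgRNA #2 its part was 0.547% (0.332 to 0.900), 1.45% (1.05 to 2.00) and 1.47% (1.07 to 2.02). These intervals cover counting error only, and the shares of the groups did not overlap. The summed level of the 6 genes was 795 ± 33.2 CPM with the control and 801 ± 31.0 CPM with sgRNA #2 (SD, n = 3 each), with overlapping ranges.

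Compared per length, as TPM over all annotated exons of a gene, CD63 had the highest level of the 6 in the control cells at 205 ± 6.82 TPM, and LAMP3 the lowest at 19.6 ± 3.93 TPM (SD, n = 3 each). Between them came LAMP1 at 144 ± 4.65, CD68 at 137 ± 4.86, LAMP2 at 90.8 ± 8.84 and SCARB2 at 50.2 ± 3.25 TPM. LAMP1 lay above CD68 in each control library (141, 141 and 149 TPM against 139, 140 and 131), while with sgRNA #2 the libraries of these genes overlapped (140 to 149 and 140 to 146 TPM). With sgRNA #2 the order of the means was the same, with LAMP3 at 5.56 ± 2.59 TPM and CD63 at 213 ± 14.2 TPM. Among 17764 genes with a length and a count, the control level of LAMP3 stood at the percentile 53.6, against 73.8 for SCARB2 and 95.1 for CD63. The order above LAMP3 depended on the length used: with coding length LAMP2 came first in the control cells (198 TPM) and CD68 next to last (70.4 TPM), and with the length of the canonical transcript SCARB2 (128 TPM) lay above CD68 (107 TPM) and LAMP2 (91.3 TPM). LAMP3 was the lowest of the 6 under each length.

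**Figure D4:**
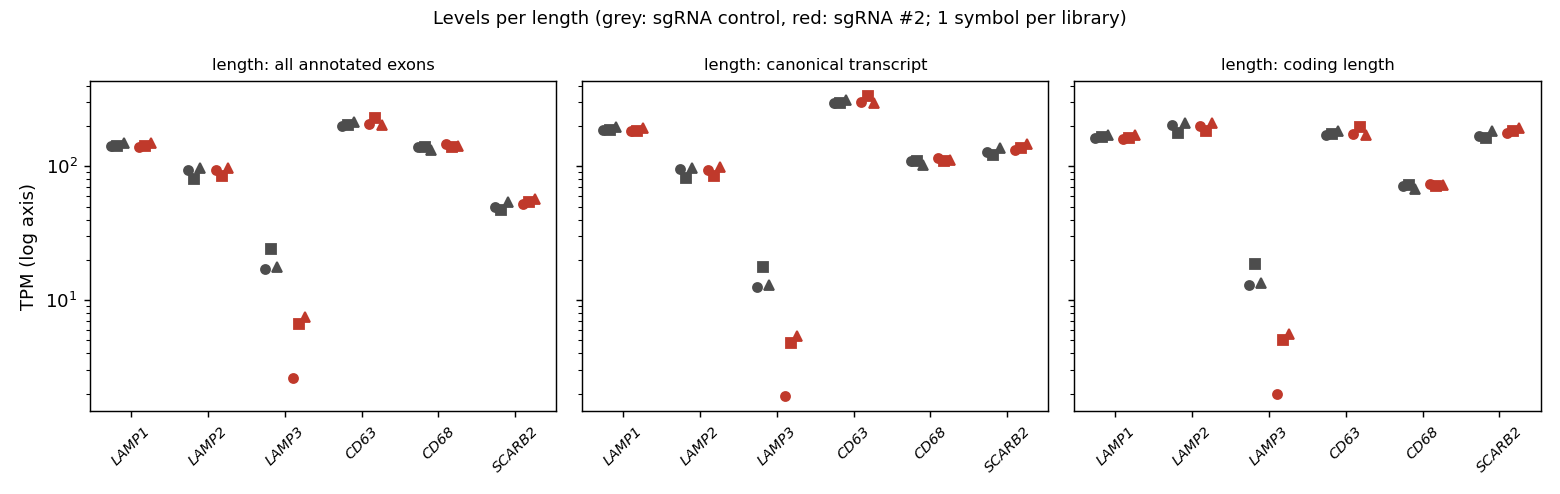
The y axes (log scale) give TPM in each library for the 6 genes, computed with the length of all annotated exons (left), of the canonical transcript (middle) and of the coding part (right), in grey for the sgRNA control and red for sgRNA #2. LAMP3 lies below the other 5 genes in every panel, at 19.6 TPM on average with the control and 5.56 TPM with sgRNA #2 in the left panel, and the order of the others differs between panels.

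Counts were then made in gene lists built around the 6 genes, each read beside the share of all tested genes that passed. At an adjusted p under 0.05 without a fold change cut-off, 2.69% of tested genes passed, 2.22% lower and 0.464% higher. With the replicate number as a block 10.0% passed, 6.06% lower and 3.97% higher. Here fell and rose are used of genes with an adjusted p under 0.05 in the fit without the block. With the fold change and adjusted p cut-offs applied together, the Wald test of DESeq2 called as many genes in each list as edgeR did. The cell type markers were not compared in this way, nor was the adjusted p cut-off alone.

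Of 22 tested relatives (tetraspanins, which share the fold of CD63, and the scavenger receptor SCARB1), 3 fell and 0 rose. The scavenger receptor CD36 was not among the tested genes. The median log2 fold change of the list was -0.11. In CPM the groups did not overlap in 8 of the 22 that were lower and 1 that was higher, against 8.83% and 6.77% of all tested genes. CD82, a tetraspanin known as a suppressor of metastasis, was the 1 gene of the list past both cut-offs. It had 21, 28 and 17 counts with the control and 10, 4 and 4 with sgRNA #2 (log2 fold change -1.77, SE 0.390, edgeR adjusted p = 0.0157). These are low counts, and CD82 was no longer called when control library 2 or sgRNA #2 library 2 or 3 was left out. TSPAN17 and TSPAN14, which belong to the group of tetraspanins that escort the protease ADAM10, fell by 0.30 and 0.26 on the log2 scale (edgeR adjusted p = 0.0195 and 0.0407), and in both genes the groups did not overlap. Other tested members of that group did not pass (edgeR adjusted p = 0.172 to 0.667). TSPAN5 stood at 0.19 on the log2 scale, TSPAN15 at -0.10, TSPAN10 at -0.56 and TSPAN33 at -0.71. With the block, 7 of the 22 had an adjusted p under 0.05, all of them lower.

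Of 38 other tested proteins of the lysosomal membrane (ion channels, transporters and SNAREs), 2 fell, 0 rose and 0 passed both cut-offs, and the median was -0.04. TMEM55B, a phosphoinositide phosphatase that takes part in moving lysosomes along microtubules, had 272, 303 and 363 counts with the control and 228, 165 and 204 with sgRNA #2 (log2 fold change -0.56, SE 0.112, edgeR adjusted p = 0.00811). NPC1, the protein that exports cholesterol from lysosomes, had 1080, 1264 and 1160 counts with the control and 988, 899 and 769 with sgRNA #2 (log2 fold change -0.32, edgeR adjusted p = 0.0203). In both genes every sgRNA #2 library lay below every control library in CPM. The groups did not overlap in 10 of the 38 genes, 6 of them lower and 4 higher, against 8.83% and 6.77% of all tested genes.

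Sorting to the lysosome uses adaptor complexes that read signals in the tails of these proteins, and none of its genes passed. Of 35 tested genes for adaptors, BLOC, HOPS and Rab proteins, 0 passed either rule, the median was -0.01, and 2 had an unadjusted p under 0.05. The smallest p belonged to VPS11, a HOPS subunit (log2 fold change -0.32, edgeR adjusted p = 0.260, or 0.0470 with the replicate block). Of 12 tested partners and cargo of the 6 proteins, 0 passed either rule, the median was -0.04, and 1 had an unadjusted p under 0.05. ITGB1, the integrin chain that binds tetraspanins, stood at -0.16 on the log2 scale (edgeR adjusted p = 0.272, or 0.00193 with the replicate block), and CHMP4B, an ESCRT-III subunit, had -0.13 (edgeR adjusted p = 0.493).

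Of 20 tested regulators of lysosomal genes, 1 fell, 0 rose and 0 passed both cut-offs, with a median of -0.06. In CPM the groups did not overlap in 6 of the 20, all of them lower, against 8.83% of all tested genes lower. BHLHE40, a repressor that competes for the sites of the TFEB family, had 2396, 2980 and 3248 counts with the control and 2339, 2262 and 2104 with sgRNA #2 (log2 fold change -0.27, edgeR adjusted p = 0.0313). TFEB, the main activator of lysosomal genes, was picked out only after its values were seen: it had 33, 49 and 43 counts with the control and 23, 19 and 22 with sgRNA #2, without overlap (log2 fold change -0.87, SE 0.231, edgeR adjusted p = 0.0544, or 0.00312 with the replicate block). With the block, 2 of the 20 were lower, namely these.

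Of 9 tested lamellar body genes, SFTPB fell and SFTPA1 rose. SFTPB had a log2 fold change of -5.96 (SE 0.101), a larger difference than that of LAMP3. SFTPA1, which encodes a surfactant protein of the innate defence, had 1160, 1387 and 1388 counts with the control and 1646, 1894 and 1576 with sgRNA #2 (log2 fold change 0.47, SE 0.0737, edgeR adjusted p = 8.96e-04), although its reads can be shared with the near-identical SFTPA2. The median of the list was 0.01. With the block, 3 of the 9 were lower and 2 higher at an adjusted p under 0.05.

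LAMP3 is known to be induced by the unfolded protein response, type I interferon and hypoxia, so genes of these responses were counted. Of 15 tested genes of the integrated stress and unfolded protein responses, 0 fell, 1 rose and 0 passed both cut-offs, and the median was 0.16. TRIB3, a pseudokinase induced by ATF4, had 1008, 1098 and 1210 counts with the control and 1440, 1351 and 1024 with sgRNA #2 (log2 fold change 0.28, edgeR adjusted p = 0.0463). With the block, 6 of the 15 were higher and 0 lower, against 3.97% of all tested genes higher. In CPM the groups did not overlap in 5 of the 15, all of them higher, against 6.77% of all tested genes higher. Of 18 tested interferon response genes, 0 passed either rule and 3 had an unadjusted p under 0.05. OAS1, a sensor of double-stranded RNA, stood at 0.28 on the log2 scale (edgeR adjusted p = 0.139, or 0.00552 with the replicate block). Of 12 tested hypoxia response genes, 0 passed either rule and 3 had an unadjusted p under 0.05, with ADM, a vasodilator peptide, at -0.29 (edgeR adjusted p = 0.170, or 0.00189 with the replicate block) and HK2, a hexokinase, at 0.28 (edgeR adjusted p = 0.247, or 0.0188 with the replicate block).

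**Figure D5:**
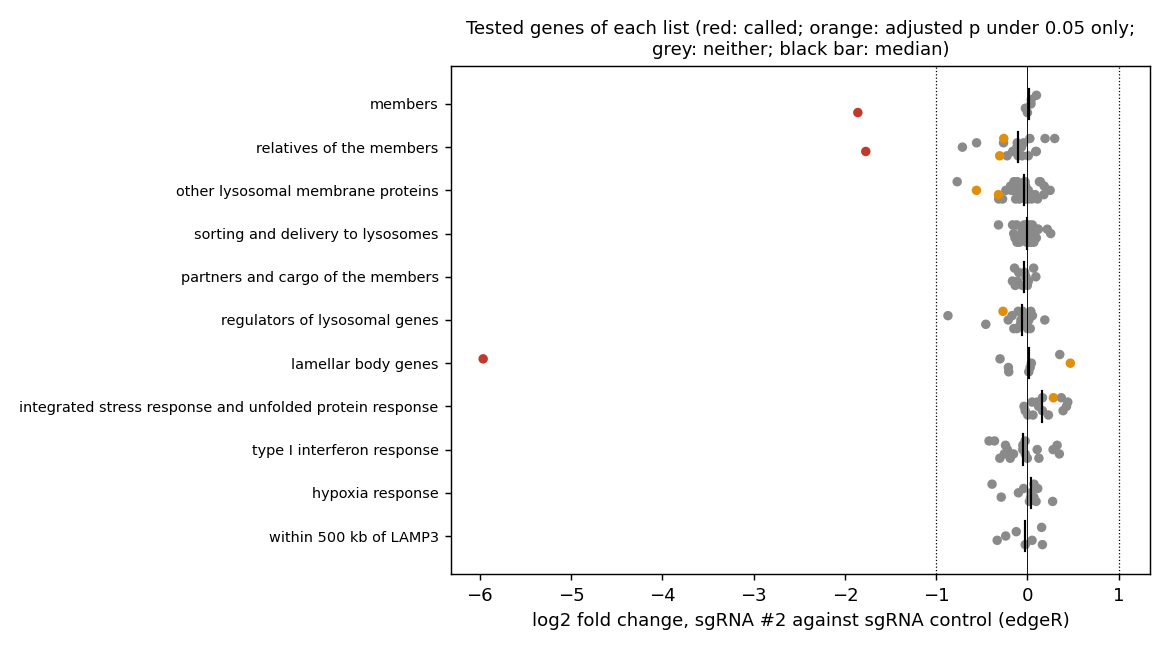
Each point is the log2 fold change (x axis, sgRNA #2 against sgRNA control, edgeR) of 1 tested gene of the list named on the y axis, in red where both cut-offs were passed, in orange where only the adjusted p was under 0.05 and in grey otherwise, with a black bar at each list's median. The red points are LAMP3 at -1.86, CD82 at -1.77 and SFTPB at -5.96, and the medians of the lists other than the 6 genes lie between -0.11 and 0.16.

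Genes around LAMP3 on chromosome 3 showed no call. Within 500 kb on either side, 9 other genes of the tables were annotated and 7 could be tested, and 0 of these had an adjusted p under 0.05, while 1 had an unadjusted p under 0.05. MCCC1, a subunit of an enzyme of leucine breakdown and the nearest gene at 6.14 kb, had 78, 109 and 109 counts with the control and 89, 99 and 99 with sgRNA #2 (log2 fold change 0.05, SE 0.145). B3GNT5, a glycosyltransferase of lacto-series glycolipids 89.4 kb away, had 461, 449 and 497 counts with the control and 413, 314 and 328 with sgRNA #2, without overlap in CPM (log2 fold change -0.33, SE 0.0916, edgeR adjusted p = 0.0684, or 1.81e-05 with the replicate block). DCUN1D1, a neddylation factor 136 kb away, stood at 0.16 on the log2 scale (edgeR adjusted p = 0.555). B3GNT5 lies inside the annotated span of MCF2L2 on the other strand, so reads of these genes may not be told apart.

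Markers of other cell types were at or near 0 for the most part. The 8 markers of macrophages or monocytes summed to 3.82 to 8.35 CPM with the control and 3.27 to 6.15 CPM with sgRNA #2, with 3 of the 8 at 0 in all libraries. The 8 markers of mature dendritic cells, the other cell type known for LAMP3, summed to 10.6 to 11.4 CPM with the control and 9.48 to 10.4 CPM with sgRNA #2, without overlap. Most of these counts came from CCR7 and CD83, while CD1C and HLA-DRA were at 0 in all libraries. CCR7 and CD83 were not lower with sgRNA #2. Their log2 fold changes were 0.03 and 0.14 (edgeR adjusted p = 0.972 and 0.933). ITGAX had 6, 12 and 13 counts with the control and 0, 1 and 4 with sgRNA #2, too few to be tested. The 6 fibroblast or endothelial markers summed to 6.65 to 9.22 CPM with the control and 6.32 to 8.84 CPM with sgRNA #2, nearly all of it COL1A1. Of the 5 tested epithelial markers, CDH1, which encodes E-cadherin, fell by 0.34 on the log2 scale (edgeR adjusted p = 0.00728), and the list summed to 3579 to 4543 CPM with the control and 3378 to 4156 CPM with sgRNA #2. The part of the dendritic cell sum and of CDH1 in the LAMP3 difference was not tested.

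The genes whose log2 CPM followed that of LAMP3 most closely over the 6 libraries were PGLS (Pearson r = 0.992), NUDT11 (0.985), BRINP1 (0.985), FAM98C (0.985) and SLC25A35 (0.982). SFTPB had an r of 0.908 with LAMP3, LAMP1 0.426, LAMP2 -0.14, CD63 -0.16, SCARB2 -0.41 and CD68 -0.50. The libraries fall into 2 groups, so these values mainly read the difference between the groups and are given as a description. Among the 5 genes, SLC25A35, a mitochondrial carrier, had an adjusted p under 0.05 (log2 fold change -0.95, edgeR adjusted p = 0.0100). In all 5 every sgRNA #2 library lay below every control library, as in 8.83% of all tested genes. This largely follows from choosing them by their likeness to LAMP3, whose groups do not overlap.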

How the data were processed

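Per the labels, 6 RNA-seq libraries of A549 cells were mapped to 2 groups with 3 libraries each. The values deposited by the authors are counts of reads for each gene symbol, not normalized. The submitters' processing notes name Trim Galore, FastQC, Bowtie2 2.3.3.1, SAMtools, Picard, HTSeq and hg38. The annotation and strand setting are not given in the sources used here. A further 19.7 to 21.1% of reads had no feature and 2.61 to 2.75% were ambiguous. These were left out of library sizes and tests.

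Genes that reached 10 counts in 3 or more libraries were tested with edgeR 4.0.16 in R 4.3.3 (TMM, quasi-likelihood test, Benjamini-Hochberg adjustment over 13356 genes) and called at the study's cut-offs. DESeq2 1.42.0, other normalizations and filters, the replicate block and leaving out each library were the alternatives. On simulated counts for this comparison (13356 genes), 196 of 200 changed genes were recovered with 0 false calls. The sizes and the spread between libraries set for these genes are not stated here. Recovery of differences as small as most of those reported above cannot be read from these numbers. Ratios used counts + 0.5. Their planned permutation test is not reported, since the LAMP3 difference was known. TPM used GENCODE 44 lengths, to which 24542 symbols were matched, 1381 of them through an older symbol. Genes named are the 6 members, the called genes of a list and those with an adjusted p under 0.05 (up to 4), otherwise the 2 with the smallest p, SFTPB, and the 5 genes most correlated with LAMP3. Part of what this rule selects is left out of the text. Guide sequences came from the study's supplementary files.

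The study describes the triplicates as biologically independent. Same-numbered libraries deviated together from their group means (correlations 0.269, 0.287 and 0.291 over 13356 genes). The pairing rests on these values and the labels' numbers. With the block, edgeR's prior degrees of freedom were infinite, against 13.0 without it, so those p-values rest on the trended dispersion alone. Members and lists were chosen with earlier results of these data known.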

Additional observations from a re-analysis of the deposited data

How the results depend on the processing

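LAMP3 stayed lower with sgRNA #2 under all 13 alternatives and was below the adjusted p of 0.05 in all but the DESeq2 test of a change above 2-fold (log2 fold change -1.85, adjusted p = 1.0, range over the alternatives 1.99e-26 to 1.0), where 0 members and 0 relatives were called. Leaving out each library gave -2.12 to -1.49 for LAMP3, and log2 ratios of -2.16 to -1.46 against LAMP1, -2.19 to -1.46 against LAMP2, -2.28 to -1.53 against CD63, -2.26 to -1.49 against CD68 and -2.27 to -1.60 against SCARB2. The sign of the small differences was not fixed. LAMP1 reached 0.0012 without control library 3 and 0.0017 without sgRNA #2 library 1 (range -0.055 to 0.0017). LAMP2 was -0.0024 with 10 counts required in every library, -0.075 without control library 2, -0.0062 without sgRNA #2 library 1 and -0.052 without sgRNA #2 library 3 (up to 0.061). CD63 was -0.014 without sgRNA #2 library 2 (up to 0.069). CD68 ran from 0.0075 to 0.063 and SCARB2 from 0.052 to 0.15. The cause was not tested. The call of CD82 among the relatives was lost with 10 counts required in every library (0 called), and without control library 2 or sgRNA #2 library 2 or 3 (0 to 1 called). At an adjusted p under 0.05 alone, 3 relatives, 2 other lysosomal membrane genes, 1 regulator, 2 lamellar body genes and 1 stress response gene passed. The replicate block changed no other call than those given beside the results. In TPM with coding length, control and sgRNA #2 means were 167 and 164 for LAMP1, 198 and 198 for LAMP2, 176 and 181 for CD63, 70.4 and 72.5 for CD68 and 171 and 184 for SCARB2, and the control mean of LAMP3 was 15.0. With the length of the canonical transcript, an alternative chosen after seeing the data, they were 189 and 188 for LAMP1, 301 and 312 for CD63, 107 and 111 for CD68 and 128 and 139 for SCARB2, and the control mean of LAMP3 was 14.4. The length itself gives these shifts. Genes with few counts, such as CD82 and TFEB, had too little depth for small changes to be read.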
